A study of Mus musculus with 6 samples.

Results

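The cytosolic ribosomal protein genes encode the proteins that, with ribosomal RNA, build the ribosomes of the cytosol. They were followed in RNA sequencing of splenic monocytes from mice with and without the interleukin-4 receptor alpha chain. Members were the protein-coding genes named Rpl or Rps with a number, and at most a closing a, x or y, together with Rplp0, Rplp1, Rplp2 and Rpsa, provided that each library held at least 10 counts. The symbols matched 76 genes of the 55421 in the files, all 76 were protein coding, and all 76 passed the minimum, so that none was left out. Of these, 30 belong to the small (40S) subunit and 46 to the large (60S) subunit. Both groups of mice carried the C57BL/6 strain label, IL-4Rα+/+ (wild type, 3 mice) and IL-4Rα-/- (3 mice), with 1 library per mouse and no treatment named in the labels. The IL-4Rα-/- mice lacked the receptor chain in the whole body, so that cells other than monocytes lacked it too, and the study used littermates as wild type. Monocytes were enriched from spleen suspensions by removal of the other cells with antibodies. The labels give neither age nor sex, and each group's replicates are separate mice. The study states an age range in weeks for its animals, under its in vivo experiments.

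A ribosome needs each of its proteins in about equal number, and these small proteins are made from some of the most abundant mRNAs of a cell. Most of these mRNAs begin with a cytosine followed by a run of pyrimidines, the terminal oligopyrimidine (TOP) motif, through which the kinase mTOR and the RNA-binding protein LARP1 control their translation as a group. The comparison asks which mRNAs of monocytes differ when the receptor is missing. Monocytes receive interleukin-4 and interleukin-13 through the deleted receptor chain, which signals through STAT6 and insulin receptor substrates. RNA sequencing counts the mRNA and not the number of ribosomes or the rate of translation.

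The 76 genes lay on 19 chromosomes. On chromosome 7, which also carries Il4ra, there were 14 members, and the nearest of them, Rps15a, was 7.45 Mb from Il4ra. Chromosome X held 4 members (Rpl10, Rpl36a, Rpl39 and Rps4x). Their transcripts were short, with a median of 772.5 bp per gene against 2509 bp over all genes tested.

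The start of a member's mRNA is where the TOP motif lies, so a window of 20 bases before and 20 bases from the transcription start is shown for members that are described further down. The windows are from RefSeq on GRCm38.p6 and are written 5′ to 3′ along the mRNA. Capitals mark the longest pyrimidine run that begins with a cytosine within 10 bases of the start, and a window without capitals has no such run of 5 bases or more. Marked runs can begin before the annotated start, as in Rpl35 (position -7), or after it, as in Rpl39 (position 7). The annotated starts were not compared with those used in these cells. A window without capitals therefore does not show that the mRNA lacks a TOP motif. Rpl39, Rpl38 and Rpl35 had the smallest unadjusted p-values among the members with a window, Rpl13a had the most positive fold change and Rps10 and Rpl24 the lowest levels. Rplp0, Rplp2, Rpsa, Rps6 and Rps27 have roles named later.
Rpl39, chrX:37085203-37085242, minus strand: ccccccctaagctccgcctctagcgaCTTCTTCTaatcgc
Rpl38, chr11:114668560-114668599, plus strand: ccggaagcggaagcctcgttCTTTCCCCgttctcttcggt
Rpl35, chr2:39005112-39005151, minus strand: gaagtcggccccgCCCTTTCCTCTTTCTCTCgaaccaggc
Rpl13a, chr7:45128726-45128765, minus strand: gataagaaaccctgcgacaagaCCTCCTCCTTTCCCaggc
Rps10, chr17:27635225-27635264, minus strand: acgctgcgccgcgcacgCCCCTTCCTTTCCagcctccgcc
Rpl24, chr16:55966255-55966294, plus strand: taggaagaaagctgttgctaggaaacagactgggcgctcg
Rplp0, chr5:115559447-115559486, plus strand: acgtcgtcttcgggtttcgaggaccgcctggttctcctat
Rplp2, chr7:141447631-141447670, plus strand: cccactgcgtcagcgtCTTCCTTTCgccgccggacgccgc
Rpsa, chr9:120127746-120127785, plus strand: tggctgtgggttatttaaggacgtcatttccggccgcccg
Rps6, chr4:86857348-86857387, minus strand: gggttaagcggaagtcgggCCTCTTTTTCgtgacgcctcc
Rps27, chr3:90213629-90213668, minus strand: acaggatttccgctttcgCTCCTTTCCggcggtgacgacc

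Of the 76 members, 56 were found in the RefSeq promoter table. A run of 8 or more pyrimidines that begins with C stood near the start of 23 of these 56 (41.1%), against 9.43% of the 27025 genes in the table. With a shorter run of 5 bases the shares were 60.7% and 34.4%. The letters CCGGAA, the core of ETS family binding sites, were found on either strand in the 300 bases around the start (250 before, 50 from it) of 31 members (55.4%), against 16.7% of all genes. AAGATGG, the core of the YY1 motif, occurred in 16.1% against 7.28%, the E-box CACGTG in 10.7% against 8.09%, and the TATA-box letters TATAAA in 10.7% against 15.7%. CCGGAA and AAGATGG can overlap by their shared AA, the pyrimidine run was read on the mRNA strand alone, and a gene with several starts was counted once if any start had the match. A match of letters is a description of the sequence. The 23 members with the longer run had a median log2 fold change between the genotypes of 0.14 and the other 33 one of 0.095, with median levels of 329 and 365 CPM. This difference was not tested, and it leaves out the 20 members without a promoter in the table. It is given without removal of a trend with transcript length, which put the median of all members at -0.011.

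Between 26807281 and 29033297 reads per library were counted on genes. The targeted gene, Il4ra, was lower in IL-4Rα-/- monocytes, with 137, 128 and 177 CPM (counts scaled to library size with TMM factors) in IL-4Rα+/+ replicates 1, 2 and 3 and 27.9, 79.4 and 31.8 CPM in IL-4Rα-/- replicates 1, 2 and 3. Its log2 fold change was -1.67 (SE 0.41), with an adjusted p of 0.618 from edgeR and 0.0111 from DESeq2. The monocyte markers were seen in every library, with a sum over 20 genes of 22914 to 30892 CPM in IL-4Rα+/+ and 26272 to 30826 CPM in IL-4Rα-/-. Summed markers of erythroid cells and of red pulp macrophages did not overlap between the genotypes. The erythroid sum was 209 to 252 CPM in IL-4Rα+/+ and 292 to 629 CPM in IL-4Rα-/- (12 of 19 tested genes higher at an unadjusted p under 0.05), and that of red pulp macrophages 3421 to 4275 against 4780 to 7447 CPM (7 of 12). The sums of the other lists overlapped, although 9 of 12 tested markers of eosinophils, basophils and mast cells (188 to 294 against 204 to 389 CPM) and 5 of 15 of neutrophils (383 to 734 against 513 to 1182 CPM) were higher at that level. The same held for 2 of 10 plasma cell markers (1505 to 1889 against 1776 to 2375 CPM) and 1 of 17 acinar pancreas markers (12.8 to 62.9 against 22.3 to 435 CPM). Among dendritic cell markers (708 to 1041 against 673 to 859 CPM) 1 was higher and 1 lower of 12, and 0 passed that level among those of B cells (42.7 to 122 against 38.1 to 215 CPM), T and NK cells (59.8 to 163 against 54.6 to 159 CPM) and platelets (3.64 to 4.70 against 3.96 to 7.61 CPM). Of the defining markers, 1 platelet and 1 pancreatic gene were at 0 in every library. Reads that mapped to several places made up 8.30%, 8.32% and 8.86% of IL-4Rα+/+ and 9.19%, 9.35% and 9.02% of IL-4Rα-/- libraries, and reads outside annotated exons 10.3% to 11.7% against 8.87% to 9.68%. Xist, transcribed from the inactive X chromosome of female cells, had 15739, 103 and 1 counts in IL-4Rα+/+ replicates 1, 2 and 3 and 1, 4 and 13512 counts in IL-4Rα-/- replicates 1, 2 and 3, which splits the libraries within both genotypes.

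A slightly larger part of the counted mRNA came from ribosomal protein genes in IL-4Rα-/- monocytes. The 76 genes together took 2.96%, 2.99% and 3.05% of the counts on genes in IL-4Rα+/+ replicates 1, 2 and 3, and 3.36%, 3.33% and 3.14% in IL-4Rα-/- replicates 1, 2 and 3. The 3 IL-4Rα-/- libraries all lay above the 3 IL-4Rα+/+ libraries, and IL-4Rα-/- replicate 3 was the nearest to them. This order was that of total counts and did not hold with TMM scaling. There the median log2 deviation of the members from their mean over libraries was -0.036 in IL-4Rα-/- replicate 3 and -0.026 in IL-4Rα+/+ replicate 3. Other short genes differed similarly: up to 1500 bp, members had a median log2 fold change of 0.10 and other genes 0.095. The mean shares were 3.00% ± 0.0507 (SD, n = 3) and 3.28% ± 0.121 (SD, n = 3), a difference of 0.276 percentage points. Both subunits had larger shares, with 1.33% against 1.45% for the 40S and 1.67% against 1.83% for the 60S members. The ratio of 40S to 60S counts was 0.793 ± 0.00907 (SD, n = 3) in IL-4Rα+/+ and 0.791 ± 0.00521 (SD, n = 3) in IL-4Rα-/-, which is a difference within the spread of the mice. No p-value is given for these sums, since they are scores over chosen genes. In bulk RNA, more cells of a type that is rich in these mRNAs and more of the mRNA per cell cannot be told apart, and the part of the markers and of the multimapping reads listed above in this difference was not tested. Reads on 185 annotated pseudogenes named after ribosomal proteins, which share sequence with the members, numbered 2374 ± 57.3 (SD, n = 3) and 2688 ± 69.1 (SD, n = 3).

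**Figure D1:**
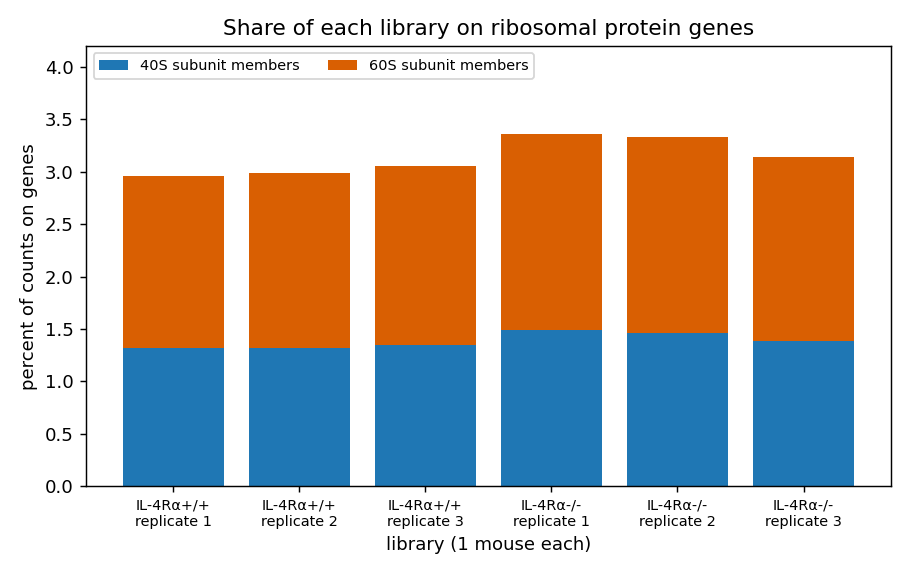
Percent of all counts on genes that lie on the 40S (blue) and 60S (orange) ribosomal protein genes, 1 bar per library. The 3 IL-4Rα+/+ bars reach 2.96% to 3.05% and the 3 IL-4Rα-/- bars 3.14% to 3.36%, with both colours higher by similar proportions.

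Gene by gene, no member passed the test. In the edgeR fit over 13849 genes, 0 members had an adjusted p under 0.15, the threshold of the study, against 0% of all genes tested, and the smallest adjusted p of a member was 0.618. With DESeq2, likewise 0 members were called, against 0.571% of the 14003 genes it adjusted. The fold changes nevertheless lay close together, as 74 of 76 members had a higher and 2 (Rpl24 and Rps10) a lower mean in IL-4Rα-/- monocytes, a count that came to 34 higher and 42 lower once a trend with transcript length was removed. The median log2 fold change was 0.10, a level 7.39% higher, with quartiles of 0.073 and 0.14 and a median standard error of 0.076. Over all genes tested the median was 0.0084 and 51.5% were higher. The 40S and 60S members had medians of 0.10 each, with 29 of 30 and 45 of 46 members higher.

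**Figure D2:**
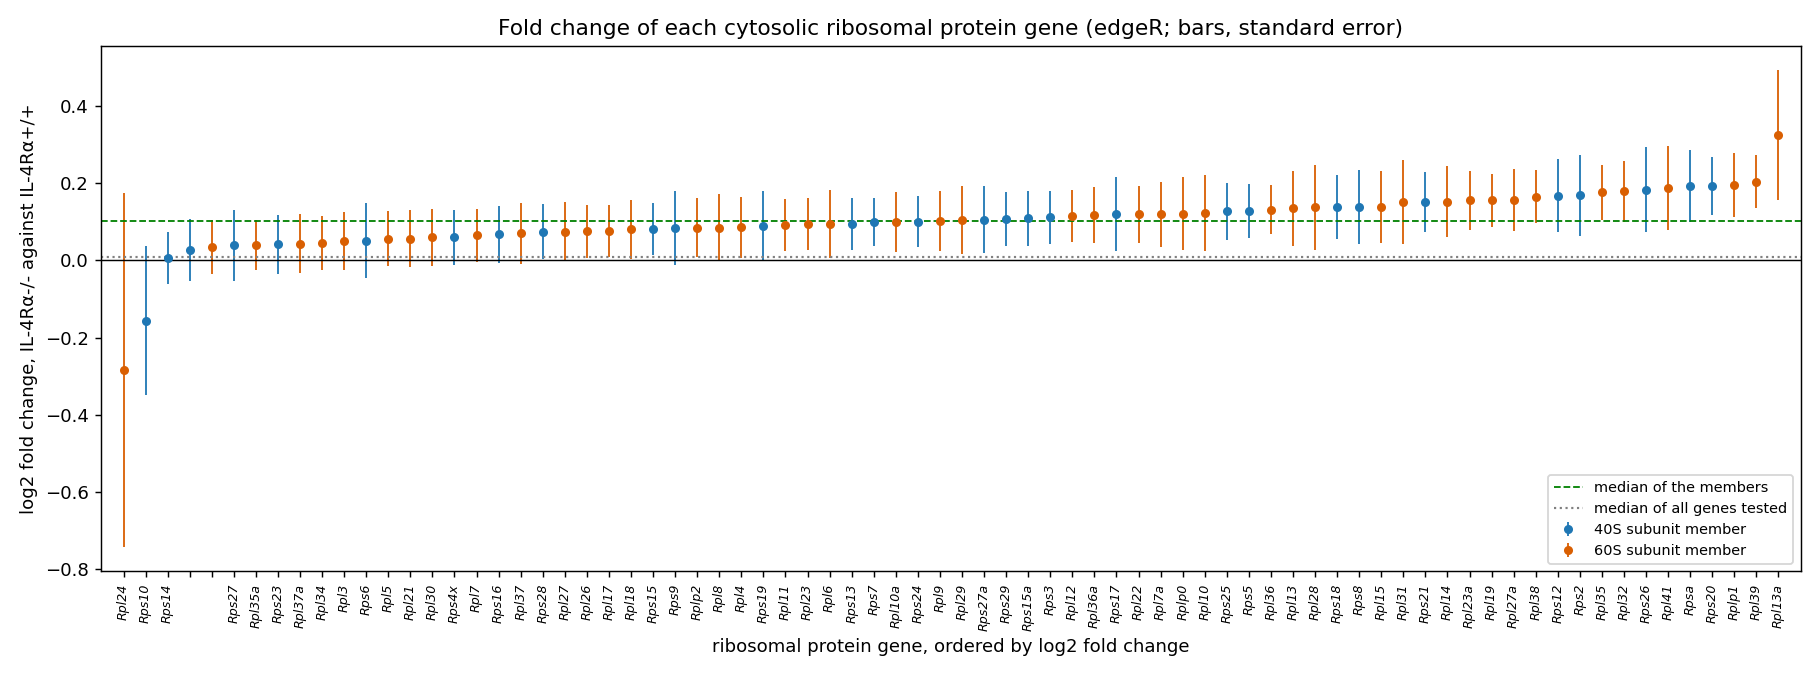
log2 fold change of each of the 76 members, IL-4Rα-/- against IL-4Rα+/+, with standard errors from edgeR, ordered by size and coloured by subunit, with some gene names not shown. Of the points 74 lie above 0 (34 after removal of a trend with transcript length), around a median of 0.10, and most error bars are about as long as the distance from 0.

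At an unadjusted p under 0.05 there were 4 members, all higher in IL-4Rα-/- monocytes, where 3.72% of all genes tested were higher and 4.37% lower at this level. They are Rpl39, Rps20, Rpl35 and Rpl38, and their share of the 76 is near that background. For 24 members all 3 IL-4Rα-/- values lay above all 3 IL-4Rα+/+ values, called separated from here on, and for 0 all lay below, while over all genes tested 7.63% were separated upwards and 7.87% downwards. Of the 24, 11 belong to the 40S and 13 to the 60S subunit. Both counts depended on single mice. Without IL-4Rα-/- replicate 3, 61 members were separated upwards, against 13.4% of all genes tested in those 5 libraries, and 9 were higher at an unadjusted p under 0.05, against 3.36%. Without IL-4Rα+/+ replicate 3, 44 members were separated upwards, against 18.6%. Separation comes about more easily with 5 libraries than with 6, so these counts are to be read beside their own shares. The number at an unadjusted p under 0.05 was 1 without IL-4Rα+/+ replicate 1, 0 without IL-4Rα+/+ replicate 2, 1 without IL-4Rα+/+ replicate 3, 0 without IL-4Rα-/- replicate 1 and 1 without IL-4Rα-/- replicate 2, where 1.78% to 5.11% of all genes were higher at this level. With scaling by total counts in place of TMM, 45 members were separated upwards, against 10.6% of all genes, and 12 were higher at an unadjusted p under 0.05, against 5.24%. The genes at this level over the whole table were then 725 higher and 389 lower, where TMM gave 515 and 605.

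Taken over the 6 libraries as a whole, most members' levels went up and down together. Over the 74 members with at least 10 CPM, the median Pearson correlation of 2 members across the 6 libraries was 0.79, positive in 96.0% of the 2701 pairs. These points share library, depth and normalization, and they include the difference between the genotypes. The value is a description, and none is given within a genotype or for other genes. The median deviation of the members from their mean over libraries was -0.064, -0.067 and -0.026 on the log2 scale in IL-4Rα+/+ replicates 1, 2 and 3, and 0.084, 0.12 and -0.036 in IL-4Rα-/- replicates 1, 2 and 3. IL-4Rα-/- replicate 2 had the highest level of the 6 libraries for 45 members and IL-4Rα-/- replicate 1 for 28. IL-4Rα-/- replicate 3 was the lowest of the IL-4Rα-/- libraries for 70 members and lay among the IL-4Rα+/+ values. It was above all IL-4Rα+/+ libraries for 24 members, against 66 for IL-4Rα-/- replicate 1 and 67 for IL-4Rα-/- replicate 2. Of the libraries with the most Xist counts, IL-4Rα+/+ replicate 1 had a median deviation of -0.064 and IL-4Rα-/- replicate 3 of -0.036, and the larger gap between genotypes lay among the other 4 libraries. Summed plasma cell markers were highest in the 2 libraries with the highest members, at 2375 CPM in IL-4Rα-/- replicate 1 and 2359 CPM in IL-4Rα-/- replicate 2, against 1776 CPM in IL-4Rα-/- replicate 3 and 1505 to 1889 CPM in IL-4Rα+/+. Of the 10 plasma cell markers tested, 6 had a higher mean in IL-4Rα-/-, with a median log2 fold change of 0.17. Summed red pulp macrophage markers were highest in the same 2 libraries, at 7447 CPM in IL-4Rα-/- replicate 1 and 4871 CPM in IL-4Rα-/- replicate 2. They were 4780 CPM in IL-4Rα-/- replicate 3 and 3421 to 4275 CPM in IL-4Rα+/+. The sums of the other marker lists did not have these 2 libraries as their highest. IL-4Rα-/- replicate 2 had the most pancreatic (435 CPM) and neutrophil markers (1182 CPM) and the most Il4ra among the IL-4Rα-/- libraries. IL-4Rα-/- replicate 3 had the most erythroid markers (629 CPM). Reads outside annotated exons made up 9.12%, 8.87% and 9.68% of IL-4Rα-/- replicates 1, 2 and 3, against 10.3% to 11.7% in IL-4Rα+/+. The part of these markers and reads in the members' levels was not tested. Leaving out IL-4Rα-/- replicate 3 put the members' median log2 fold change at 0.14, and leaving out IL-4Rα-/- replicate 2 at 0.070.

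**Figure D3:**
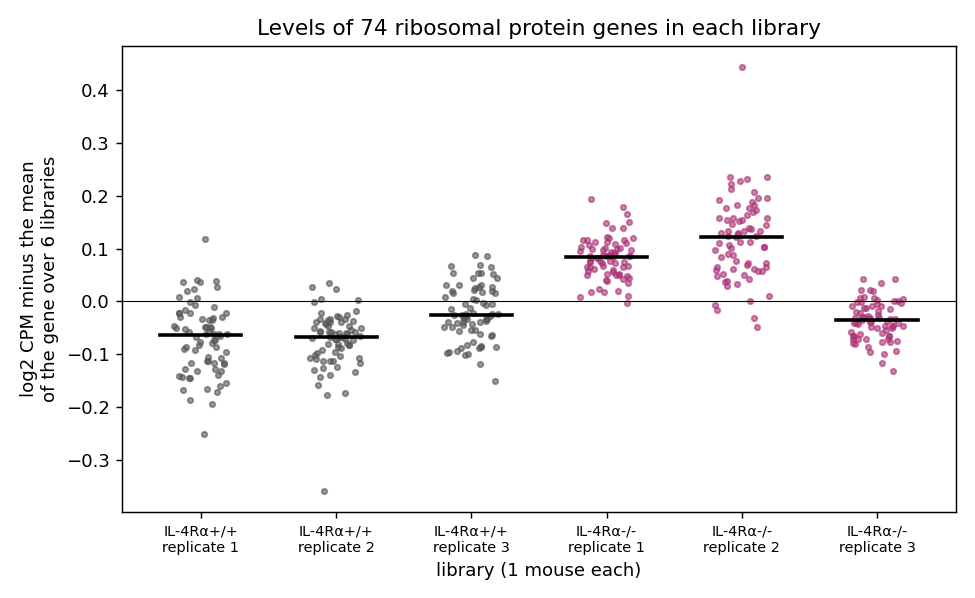
Each point is 1 of 74 ribosomal protein genes with at least 10 CPM, as log2 CPM minus its mean over the 6 libraries, and each bar is the median of a library. IL-4Rα-/- replicates 1 and 2 stand above 0, with medians of 0.084 and 0.12, while IL-4Rα-/- replicate 3, at -0.036, lies with the IL-4Rα+/+ libraries.

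The stalk of the 60S subunit, which recruits the translation factors, is formed by Rplp0 and by dimers of Rplp1 and Rplp2. Rplp1 (ENSMUSG00000007892.8, chromosome 9 from 61913284 to 61914542 on the minus strand, GRCm38) had the highest level per length of all members, 1519 CPM per kb. It had 707, 709 and 704 CPM in IL-4Rα+/+ replicates 1, 2 and 3 and 864, 829 and 735 CPM in IL-4Rα-/- replicates 1, 2 and 3. The IL-4Rα+/+ values lay within a few CPM of each other and all IL-4Rα-/- values lay above them, with a log2 fold change of 0.20 (SE 0.083) and an adjusted p of 0.618. Its partner Rplp2 had 467, 454 and 469 CPM against 508, 509.8 and 456 CPM in the same order, where IL-4Rα-/- replicate 3 fell between the IL-4Rα+/+ mice, and a log2 fold change of 0.085 (SE 0.076). Rplp0, the base of the stalk, had 963, 1008 and 1071 CPM against 1053, 1224 and 1032 CPM, with overlapping groups and a log2 fold change of 0.12 (SE 0.094).

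Among the members of the 40S subunit, Rpsa, which also serves as a laminin receptor and whose human counterpart is mutated in congenital absence of the spleen, had 566, 555 and 600.4 CPM in IL-4Rα+/+ and 657, 719 and 592 CPM in IL-4Rα-/- mice. Only IL-4Rα-/- replicate 3 overlapped the IL-4Rα+/+ range, and the log2 fold change was 0.19 (SE 0.093). Rps20 (ENSMUSG00000028234.6, chromosome 4 from 3831334 to 3835665 on the minus strand), a protein of the head of the subunit, was separated, with 274, 274 and 285 CPM against 322, 336 and 296 CPM. Its log2 fold change was 0.19 (SE 0.076), with an unadjusted p of 0.0399 and an adjusted p of 0.618. Rps3, at the entry of the mRNA channel and also a subunit of NF-κB complexes, had 1057, 1050.0 and 1079 CPM against 1151, 1183 and 1107 CPM and was separated too, with a log2 fold change of 0.11 (SE 0.068). Rps6, the substrate of the S6 kinases downstream of mTOR, had 279.8, 274 and 289 CPM against 288, 326 and 261 CPM. The IL-4Rα-/- values of Rps6 enclosed the IL-4Rα+/+ values, and the log2 fold change was 0.051 (SE 0.096).

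Several 40S genes are known from Diamond-Blackfan anaemia and related failures of red cell formation in people. Rps19, the first gene found in that disease, had 262, 241 and 240.2 CPM against 272, 281 and 238 CPM, with overlap and a log2 fold change of 0.090 (SE 0.089). Rps29 was separated, with 488, 471 and 482 CPM against 542, 515 and 496 CPM and a log2 fold change of 0.11 (SE 0.070). Rps14, which is lost on the deleted chromosome arm of the 5q- syndrome, had 933, 946 and 899.8 CPM against 954, 929 and 908 CPM. This was the smallest difference among the well expressed members, a log2 fold change of 0.0062 (SE 0.067). Rps27, also among the 5 most abundant members per kb, had a log2 fold change of 0.039 (SE 0.092). Rps27 had 477, 429.5 and 396 CPM against 469, 430.1 and 439 CPM, with its lowest and highest values both in IL-4Rα+/+ mice. Rps27a, made as a fusion with ubiquitin, had 411, 389 and 442 CPM against 463, 464 and 409.8 CPM and a log2 fold change of 0.11 (SE 0.087).

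In the 60S subunit, Rpl5 and Rpl11 form a particle with 5S ribosomal RNA that can bind Mdm2 and so stabilise p53. Rpl11 had 444, 443 and 449 CPM in IL-4Rα+/+ and 490.3, 478 and 455 CPM in IL-4Rα-/- mice, separated by a small margin, with a log2 fold change of 0.091 (SE 0.067). Rpl5 had 405, 393 and 401 CPM against 431, 424 and 391 CPM, where IL-4Rα-/- replicate 3 was the lowest of all 6, and a log2 fold change of 0.056 (SE 0.071). Rpl3, which reaches into the peptidyl transferase centre, had 530.3, 567 and 549 CPM against 604, 555 and 546 CPM with overlap and a log2 fold change of 0.050 (SE 0.075). Rpl38, needed for translation of homeobox mRNAs in the mouse embryo, was separated, with 106, 105 and 104 CPM against 121, 121 and 112 CPM, a log2 fold change of 0.17 (SE 0.068), an unadjusted p of 0.0467 and an adjusted p of 0.618. Rpl35, at the exit of the nascent chain, was separated as well, with 129, 123 and 126 CPM against 142, 149 and 135 CPM, a log2 fold change of 0.18 (SE 0.071), an unadjusted p of 0.0435 and an adjusted p of 0.618. Exons of Rpl35 share 66.2% of their bases with annotation on the other strand, and the strand setting of the counting is not given in the sources used here, so that its level is uncertain. Rpl22, which is dispensable for most translation and needed in T cell development, had 265, 277 and 294 CPM against 306, 312 and 291 CPM and a log2 fold change of 0.12 (SE 0.074). Rpl41, which encodes the shortest of these proteins, had 242, 238 and 279 CPM against 292, 317 and 256 CPM, with the IL-4Rα+/+ replicate 3 above IL-4Rα-/- replicate 3, and a log2 fold change of 0.19 (SE 0.11).

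All 4 members on the X chromosome had higher means in IL-4Rα-/- mice, which for Rpl36a and Rps4x turned to log2 fold changes of -0.038 and -0.036 with the length trend removed. Rpl39 (ENSMUSG00000079641.3, chromosome X from 37082520 to 37085402 on the minus strand), a very small protein of the exit tunnel, had the smallest p-value of all members. It had 165, 163 and 161 CPM in IL-4Rα+/+ and 196, 188 and 179 CPM in IL-4Rα-/- mice, with both groups tight and apart, a log2 fold change of 0.20 (SE 0.068), an unadjusted p of 0.0220 and an adjusted p of 0.618. Rpl36a was separated, with 142, 140.4 and 142 CPM against 162, 154 and 144 CPM and a log2 fold change of 0.12 (SE 0.072). Rpl10, among the last proteins to join the 60S subunit, had 401, 403 and 469 CPM against 474, 489 and 424 CPM and a log2 fold change of 0.12 (SE 0.098). Rps4x had 649, 664 and 679 CPM against 706, 715 and 656 CPM and a log2 fold change of 0.059 (SE 0.071), so that the X-linked members lay within the range of the others.

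Levels per length differed widely between members. On the scale of mean CPM per kb of transcript, the members ranged from 1.04 (Rpl24) to 1519 (Rplp1), with quartiles of 318 and 649 and a median of 450.4, against a median of 8.50 over all genes tested, and 71 of 76 were among the top 5% of genes. After Rplp1 came Rps14 (1392), Rps29 (1279) and Rps27 (1276), all 40S proteins. The lowest were Rpl24 (1.04), Rps10 (5.97), Rpl13a (48.6), Rps15a (64.2) and Rps20 (80.4). For the last of these, Rps15a and Rps20, the length taken from the annotation, 5130 and 3706 bp, is a median over annotated transcripts that includes long ones, and their CPM (329 and 298) were near the members' median of 381 CPM.

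The remaining 3, Rpl24, Rps10 and Rpl13a, are those whose exons overlap most with another annotated gene on the same strand. Rpl24 (chromosome 16 from 55966275 to 55971435 on the plus strand) shares 47.0% of its exon bases with Gm28037, Rpl13a (chromosome 7 from 45125558 to 45128761 on the minus strand) 35.4% with Gm45713 and small RNA genes, and Rps10 (chromosome 17 from 27630418 to 27636669 on the minus strand) 20.6% with RPS10-NUDT3. No other member shared more than 14.5% (Rpl32), and 27 members shared any. STAR, the counting tool, leaves a read that fits exons of more than 1 gene out of the count of both. Gm28037, Gm45713 and RPS10-NUDT3 had 0 counts in every library, which allows up to 3 counts in each of reads that fit them alone. Reads shared with a member are not in these counts, which therefore set no limit on how many were left out. The values of Rpl24, Rps10 and Rpl13a are therefore uncertain as levels of their mRNA. Rpl24 had 14, 32 and 18 counts in IL-4Rα+/+ and 18, 11 and 26 counts in IL-4Rα-/- mice, a log2 fold change of -0.28 (SE 0.46) whose sign turned without IL-4Rα+/+ replicate 2 (0.12). Rps10 had 133, 102 and 101 counts against 106, 92 and 116 counts, a log2 fold change of -0.16 (SE 0.19). These were the only members with lower means in IL-4Rα-/- mice without removal of a trend. Rpl13a, which outside the ribosome silences inflammatory mRNAs in human monocytic cells as part of the GAIT complex, had the most positive log2 fold change, 0.33 (SE 0.17), with an adjusted p of 0.635. It had 32.8, 28.7 and 38.3 CPM against 40.9, 50.2 and 34.0 CPM, where IL-4Rα-/- replicate 3 lay among the IL-4Rα+/+ mice and IL-4Rα-/- replicate 2 was the highest.

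**Figure D4:**
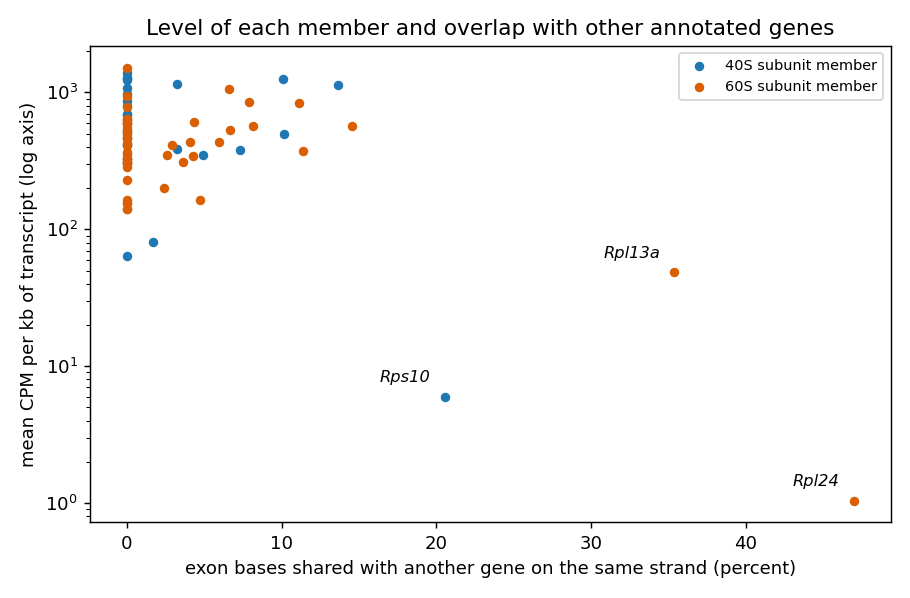
Mean level of each of the 76 members over 6 libraries, in CPM per kb on a log axis, against the percent of its exon bases that another annotated gene shares on the same strand. Rpl24, Rps10 and Rpl13a, with 47.0%, 20.6% and 35.4% shared, are the 3 points at the bottom right, at 1.04, 5.97 and 48.6 CPM per kb.

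To compare the members with one another, the counts were scaled to the sum of the 76 members in each library, a setting chosen after seeing the data that centres the members on 0. On that scale 0 members had an unadjusted p under 0.05, where 1.52% of all genes tested were higher and 8.92% lower at that level. Among the members with at least 10 CPM the fold changes ran from -0.094 to 0.22, the latter for Rpl13a.

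Fold changes followed transcript length over the whole table, and the members are short. Among the genes that are not members, those of up to 700 bp had a median log2 fold change of 0.13, and 64.0% were higher in IL-4Rα-/- mice. The median was 0.10 from 700 to 1000 bp, 0.082 up to 1500 bp, 0.049 up to 2000 bp, 0.017 up to 3000 bp, -0.031 up to 5000 bp and -0.13 above 5000 bp. Of the members, 70 were no longer than 1500 bp, with a median of 0.10, while the 3338 other genes of that length had a median of 0.095 and 65.6% were higher. When the trend with length was removed from each library, 34 members had a higher and 42 a lower mean in IL-4Rα-/- mice, with a median of -0.011 against -0.016 over all genes. Then 2 members were separated upwards and 4 downwards, where 4.81% of all genes tested were separated upwards and 8.09% downwards. No member had an unadjusted p under 0.05, where 2.51% of all genes were higher and 3.56% lower at that level. With a trend fitted on the other genes alone, chosen after seeing the data, the median member log2 fold change was -0.012. Removal of a trend with GC content put the members' median at 0.072 against -0.018 over all genes, with 70 members higher. After removal of the length trend Rplp1 had a log2 fold change of 0.043, Rpl39 of 0.065, Rpl38 of 0.0073 and Rpl35 of 0.080, and Rps14 and Rps27 were both at -0.12. For Rps20 and Rpsa the values were 0.20 and 0.14, at annotated lengths of 3706 and 1768.5 bp. The length of Rps20 is a median that includes long annotated transcripts, and its value after removal depends on that length. Whether the trend with length arose in the cells or in the libraries was not tested.

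**Figure D5:**
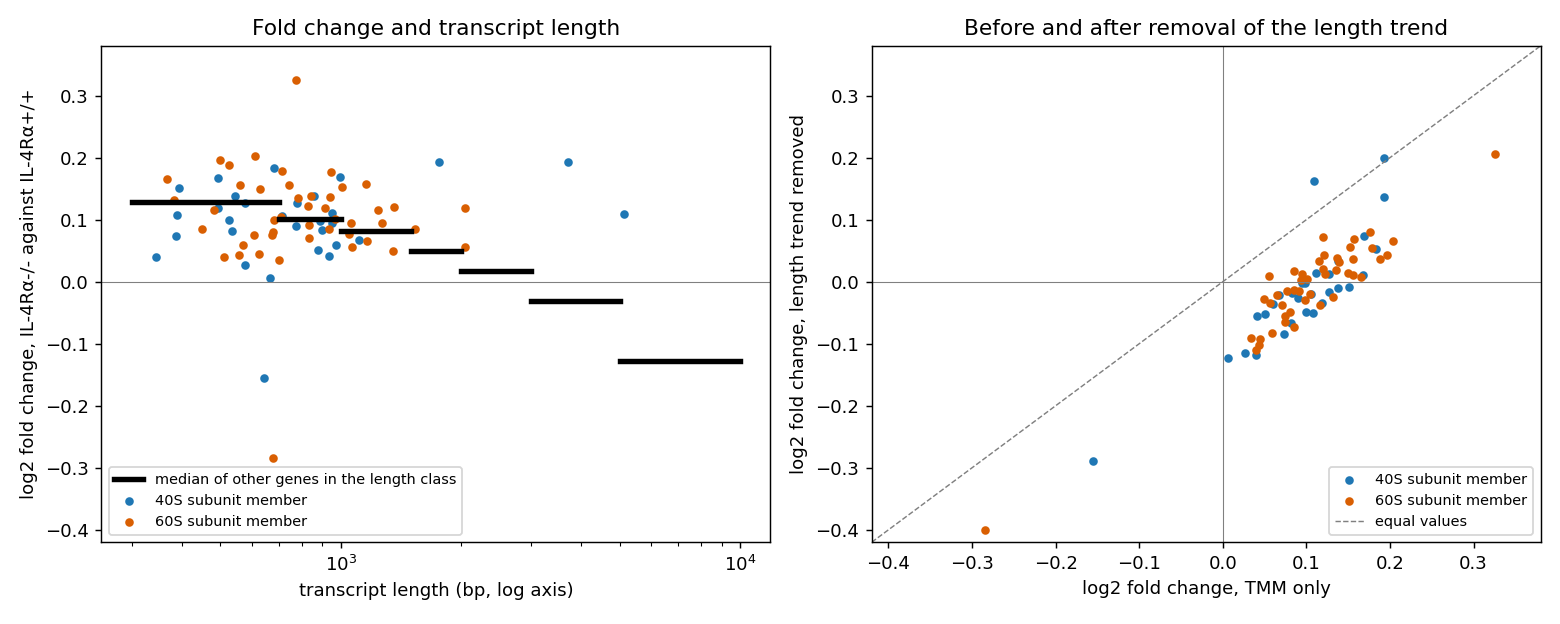
Left, log2 fold change of each member (IL-4Rα-/- against IL-4Rα+/+) against transcript length on a log axis, with black bars for the median of the other genes in 7 length classes, the outermost of which are open-ended and drawn with a fixed width. Right, the same fold changes before and after removal of the length trend. The bars fall from 0.13 to -0.13 with length, the members lie around the bars of the short genes, and after removal 34 members are above 0 and 42 below it.

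Some ribosomal protein genes and paralogues have names outside the rule. Fau, whose protein is cut into a ubiquitin-like part and the 40S protein S30, had 402, 396 and 394 CPM against 418, 415 and 396 CPM and a log2 fold change of 0.043 (SE 0.065). Rps3a1, another 40S gene, had 472, 447 and 459 CPM against 495, 484 and 472 CPM and a log2 fold change of 0.075 (SE 0.066). The paralogue Rps27l, a target of p53, was the only one of the 9 tested with an unadjusted p under 0.05. It had 47.1, 52.0 and 56.2 CPM in IL-4Rα+/+ and 59.8, 67.1 and 60.1 CPM in IL-4Rα-/- mice, with no overlap, a log2 fold change of 0.27 (SE 0.093), an unadjusted p of 0.0249 and an adjusted p of 0.618. With the length trend removed the log2 fold change of Rps27l was 0.12. The median of the 9 tested was 0.13 before and -0.0034 after that removal. The other paralogues had log2 fold changes of 0.14 (SE 0.083) for Rpl22l1, 0.13 (SE 0.14) for Rpl7l1, 0.43 (SE 0.23) for Rps4l, -0.15 (SE 0.26) for Rpl36al and -0.67 (SE 0.55) for the muscle paralogue Rpl3l. Rpl10l and Rpl39l had too few counts for the test.

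Genes that make, regulate or resemble the ribosome were compared in the same fit, and 0 of them passed the test. Counts at an unadjusted p under 0.05 in these lists stand beside 3.72% of all genes tested higher and 4.37% lower. The ribosomal proteins of mitochondria build a separate ribosome. Of 48 large subunit genes tested 44 had higher means in IL-4Rα-/- mice, with a median log2 fold change of 0.15, 3 at an unadjusted p under 0.05 upwards and 1 downwards, and of 29 small subunit genes 26 were higher, with a median of 0.10, 2 and 0. After removal of the length trend the medians were 0.065 and 0.057, where that of the cytosolic members was -0.011, and the difference between the lists was not tested. Mrpl23 had 6.46, 6.43 and 5.96 CPM against 5.03, 4.44 and 4.56 CPM (log2 fold change -0.43 (SE 0.15)) and Mrpl51 16.6, 15.04 and 18.4 CPM against 21.3, 21.1 and 18.9 CPM (log2 fold change 0.29 (SE 0.11)). Mrps18a and Mrps21 had log2 fold changes of 0.21 (SE 0.083) and 0.27 (SE 0.11). Of 24 other TOP mRNAs, among them translation factors, 19 were higher, with a median of 0.082 (0.013 with the length trend removed) and 0 at an unadjusted p under 0.05 in either direction. Npm1, a nucleolar chaperone, had 271, 269 and 283 CPM against 319, 298 and 284 CPM (log2 fold change 0.13 (SE 0.074)), and Btf3, of the nascent polypeptide-associated complex, a log2 fold change of 0.19 (SE 0.11).

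The lists of genes that build and regulate ribosomes were split in direction. Of 41 ribosome biogenesis genes 23 were higher and 18 lower, with a median log2 fold change of 0.019 and 1 at an unadjusted p under 0.05 in each direction. Those were Wdr75, of the small subunit processome, with 26.6, 24.9 and 27.2 CPM against 40.1, 30.4 and 31.9 CPM (log2 fold change 0.38 (SE 0.12), adjusted p 0.618), and Lsg1, a GTPase of late 60S maturation, with 54.5, 54.4 and 56.4 CPM against 48.6, 51.4 and 47.7 CPM (log2 fold change -0.16 (SE 0.065)). Of 14 genes for RNA polymerase I, which transcribes ribosomal RNA, 5 were higher and 9 lower, with a median of -0.028. Its largest subunit, Polr1a, had 46.1, 39.9 and 37.6 CPM against 32.6, 32.9 and 29.1 CPM, with no overlap, a log2 fold change of -0.39 (SE 0.10) and an adjusted p of 0.618, and Polr1d a log2 fold change of 0.18 (SE 0.086). Among 21 genes of mTOR signalling and TOP control, 12 were higher and 9 lower, with a median of 0.014, 0 at an unadjusted p under 0.05 upwards and 2 downwards. Mtor itself had 55.0, 60.9 and 58.2 CPM in IL-4Rα+/+ and 47.2, 50.5 and 47.5 CPM in IL-4Rα-/- mice, with no overlap and a log2 fold change of -0.26 (SE 0.072) (adjusted p 0.618), and Tsc1, which restrains mTOR, 51.7, 54.3 and 51.3 CPM against 46.5, 42.4 and 46.2 CPM (log2 fold change -0.22 (SE 0.070)). These transcripts are long, and after removal of the length trend Polr1a was at -0.23, Mtor at -0.22 and Tsc1 at -0.11. Of 12 transcription factors of ribosomal protein genes 4 were higher and 8 lower, with a median of -0.019. Sp1 had a log2 fold change of -0.24 (SE 0.089) and Myc, with 9.90, 9.90 and 6.79 CPM against 9.95, 11.3 and 10.9 CPM, one of 0.27 (SE 0.18). Of 16 chaperones and importers of ribosomal proteins 7 were higher and 9 lower, with a median of -0.013, and Tnpo1, an import receptor, had a log2 fold change of -0.24 (SE 0.068), which was -0.11 with the length trend removed.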

How the data were processed

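Splenic monocyte RNA of both genotypes (3 mice each, IL-4Rα+/+ and IL-4Rα-/-) was sequenced by the study as single-end reads of 75 bp from directional poly(A) libraries. The authors aligned the reads with STAR 2.6.1a to GRCm38 and deposited raw counts of uniquely mapped reads per gene, without normalization. The processing notes also name bcl2fastq 2.19.1.403, RSEM and DESeq2 1.22.2. Which strand was counted is not given in the sources used here. The 4 rows that name no gene entered neither library sizes nor tests. They hold reads without a unique place or gene: 1.32% to 1.66% of reads were unmapped, 8.30% to 9.35% multimapping, 8.87% to 11.7% outside exons and 1.39% to 1.52% ambiguous.

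Symbols, lengths and GC content came from GENCODE M21 (the study used M23), in which 55240 of 55421 identifiers and all 76 members were found. Genes were filtered with filterByExpr (minimum count 10), normalized by TMM and compared between genotypes in edgeR 4.0.16 (R 4.3.3; the quasi-likelihood F-test), and p-values were adjusted by Benjamini and Hochberg's method over all 13849 genes. CPM are TMM-normalized. DESeq2 1.42.0 was the alternative test, and the other alternatives changed normalization, filter, covariates, trends (loess, span 0.5), members and mice. The steps were tested on simulated data. All members but Rpl24 and Rps10 had at least 10 CPM, and Rpl24 rests on 11 to 32 counts per library.

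The members, the lists of related genes and markers and the tests were chosen with earlier results of these data known. Genes were named by role, as the 5 members with the most positive and most negative fold changes, the smallest p-values and the highest and lowest levels per kb, as ribosomal protein genes outside the rule, and as the 2 genes with the smallest p in each related list. Rpl32 was named after its values were seen. Same-numbered replicates of the 2 genotypes were treated as unpaired. Some genes that this rule names are not reported here.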

Additional observations from a re-analysis of the deposited data

How the results depend on the processing

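No alternative gave a member an adjusted p under 0.15, and 0 genes in all were called except with DESeq2 (80 genes), which also called Il4ra (log2 fold change -1.67). Of 50 named genes, 33 kept their direction under every alternative in which single genes were followed. That leaves out the scaling to the members and the length trend fitted on the other genes. With the scaling, which centres the members on 0, Rpl5 for example was at -0.045. The median member log2 fold change was -0.011 with the length trend removed and -0.012 with that trend fitted on the other genes (this and the scaling to the members were chosen after seeing the data), and it lay between 0.070 and 0.14 with 1 mouse left out. All members at an unadjusted p under 0.05 were higher in IL-4Rα-/-, so each count is given with the share of all genes higher. The number was 12 with total counts (5.24%), 11 with the upper quartile (5.02%), 2 with DESeq2 (2.36%) and 1 with no filter (2.52%). It was 1 with GC content removed (2.66%), 1 with Xist as covariate (3.12%) and 0 with length removed (2.51%). It was 0 with length fitted on the other genes (2.51%) or with scaling to the members (1.52%), and 0 to 9 with 1 mouse left out (1.78% to 5.11%). The number separated in either direction was 45 with total counts (all upwards, against 10.6% of all genes), 6 with length removed (2 upwards, 4.81%, and 4 downwards, 8.09%), 5 with length fitted on the other genes (1 upwards, 4.79%, and 4 downwards, 8.09%), 7 with GC content removed (all upwards, 5.14%), 8 with scaling to the members (6 upwards, 3.48%, and 2 downwards, 13.8%) and 21 to 61 with 1 mouse left out (all upwards, 10.5% to 18.6%).

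With the length trend removed, the log2 fold change turned negative for Rplp2 (-0.073), Rpl3 (-0.028), Rpl11 (-0.016), Rpl36a (-0.038), Rps4x (-0.036), Rps6 (-0.052), Rps14 (-0.12), Rps19 (-0.026), Rps27 (-0.12), Rps27a (-0.020), Rps29 (-0.051), Fau (-0.11), Rps3a1 (-0.020) and Rpl22l1 (-0.0034). With the GC trend removed it did so for Rps14 (-0.035). With 1 mouse left out the range crossed 0, from -0.000289 to 0.079 for Rpl3, -0.036 to 0.13 for Rps6, -0.017 to 0.025 for Rps14, -0.021 to 0.11 for Rps27, -0.59 to 0.12 for Rpl24, -0.35 to 0.032 for Rpl36al and -1.04 to 0.076 for Rpl3l.

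Same-numbered mice did not deviate together, with correlations of 0.26, -0.30 and -0.39 over 13849 genes, so the numbers were not taken as pairs. With a replicate block 0 genes were called and the members' median was 0.10. In that fit 0 members had an unadjusted p under 0.05, where 2.92% of all genes were higher and 2.61% lower at that level. The causes were not tested.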
